A study of Mus musculus with 2 samples.

Results

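The genes described here are 9 contractile and actin-binding genes known from smooth muscle cells and myofibroblasts: Acta2, Tagln, Cnn1, Cnn2, Myl9, Tpm1, Tpm2, Flna and Flnc. They were given as a list of symbols, and every probe set that carried exactly 1 of these symbols in the platform annotation was taken. This gave 18 probe sets of the 45037 on the array, and the 9 genes are among 18193 genes with a probe set of their own. The study compared peritoneal macrophages of male C57BL/6 mice that had received a control siRNA with macrophages that had received an siRNA to HDAC9, one of the class IIa histone deacetylases, with RNA taken 48 h later in both groups. There was 1 Affymetrix array per group, and the mice's age and whether cells of several mice were pooled are not stated in the labels. No spread between cultures could be measured, so there is no test, and the small number of arrays sets the precision of every value. The siRNA's target gave little to check the labels with: the Hdac9 probe set 1434572_at had log2 signals of 6.88 with control siRNA and 5.69 with HDAC9 siRNA, and 1421306_a_at had 5.99 and 5.94, against a background floor of 6.34.

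Smooth muscle cells contract when myosin pulls on filaments of smooth muscle actin, and tropomyosin, calponin and transgelin lie along these filaments, while filamins link them into networks and to the membrane. Fibroblasts and mesothelial cells take up many of the same genes when they turn into myofibroblasts, the contractile cells of scars and of the fibrotic peritoneum. Serum response factor (SRF) with its actin-regulated partners of the MRTF family, and TEAD factors with YAP and TAZ, are textbook activators of these genes, and transforming growth factor beta (TGF-beta) is the best known outside signal. Several members, among them Flna and Cnn2, are also used by cells that are not muscle, macrophages included.

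The 9 genes did not move as a block. Flnc was 3.08-fold higher on the HDAC9 siRNA array, Acta2, Tpm1, Tpm2 and Flna were 1.26-fold to 1.33-fold higher, Tagln and Cnn2 differed by less than the scatter between probe sets, Myl9 was 1.54-fold lower, and Cnn1 was at least 1.80-fold lower. These are ratios of the HDAC9 siRNA array to the control array for the brightest probe set of each gene. A signal under the floor, the 95th percentile of 80 probe sets for olfactory and vomeronasal receptors, was raised to the floor, and such a ratio is a bound. The scatter, 0.29 log2 units, was taken from genes with several probe sets: it is the SD of the gap between the ratios of the 2 brightest sets of a gene, over 5671 genes, divided by root 2. It covers differences between probe sets on the same arrays and no difference between cultures. In RNA of a whole culture, a higher signal from more cells that express a gene and one from more transcript per cell cannot be told apart.

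**Figure D1:**
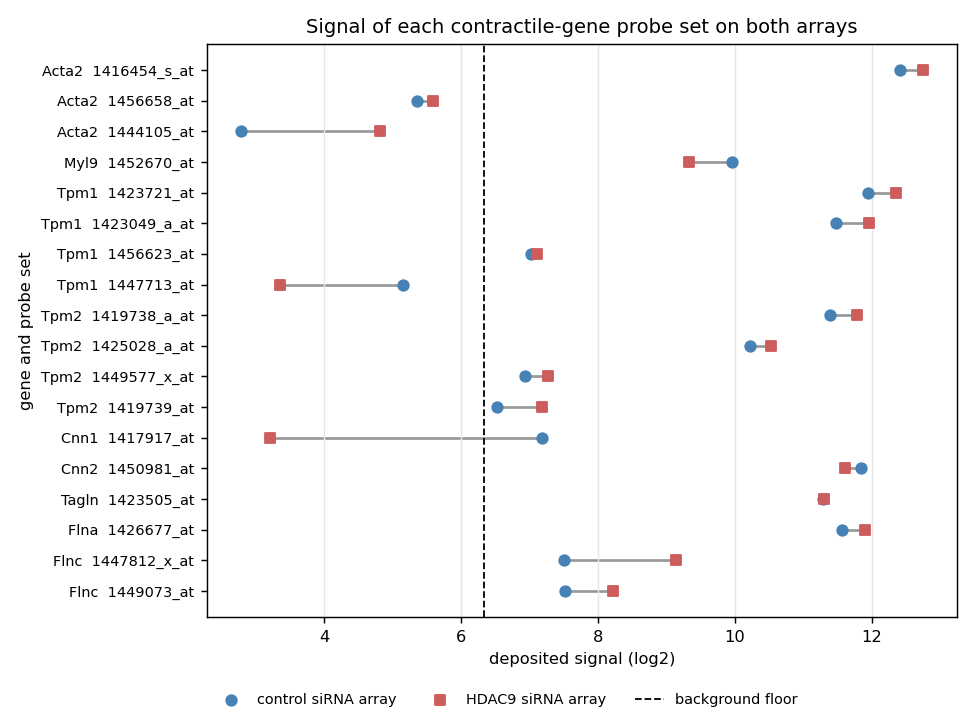
Deposited log2 signal (x axis) of the 18 probe sets of the contractile genes (y axis, gene and probe set), with circles for the control siRNA array, squares for the HDAC9 siRNA array and a dashed line at the background floor of 6.34. The probe sets of Tpm1, Tpm2 and Flnc above the floor all lie further right on the HDAC9 siRNA array, and Cnn1 crosses the floor.

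Acta2 encodes alpha smooth muscle actin, the defining filament protein of myofibroblasts. Its bright probe set 1416454_s_at had a log2 signal of 12.41 with control siRNA and 12.75 with HDAC9 siRNA, a log2 ratio of 0.34. The other Acta2 probe sets were under the floor on both arrays, 1456658_at at 5.36 and 5.59 and 1444105_at at 2.78 and 4.82, so they give no ratio and Acta2 rests on a single probe set. A name ending in _s_at marks a set whose probes can match transcripts of more than 1 gene, and the contribution of other actins to this signal was not tested.

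Myl9 encodes the regulatory light chain of smooth muscle and non-muscle myosin, the chain that is phosphorylated when the motor is switched on. Its probe set 1452670_at went the other way, from 9.95 with control siRNA to 9.33 with HDAC9 siRNA, a log2 ratio of -0.62. A ratio this low or lower was found for 2.29% of the 12090 genes above background on at least 1 array.

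The tropomyosins had the most probe sets behind them. Tropomyosin 1, from Tpm1, went from 11.94 to 12.35 by 1423721_at, from 11.47 to 11.95 by 1423049_a_at and from 7.02 to 7.11 by 1456623_at, with log2 ratios of 0.41, 0.48 and 0.09, while 1447713_at was under the floor on both arrays (5.15 and 3.36). The bright Tpm1 probe sets thus gave like ratios and the dim one a smaller one. Tpm2, the beta-tropomyosin gene, was higher by all 4 of its probe sets: 11.39 and 11.78 by 1419738_a_at, 10.23 and 10.52 by 1425028_a_at, 6.94 and 7.26 by 1449577_x_at, and 6.53 and 7.18 by 1419739_at. Its log2 ratios were 0.40, 0.29, 0.33 and 0.65, and the last comes from the dimmest set, just above the floor.

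Calponins bind actin and damp the myosin motor. Cnn1, the calponin of mature smooth muscle, was above background only on the control array, at 7.19 by 1417917_at, and was at 3.21 on the HDAC9 siRNA array. Its log2 ratio of -0.85 is a bound that depends on the floor: the deposited signals themselves differed by -3.98, and the bound was -1.91 when the 75th percentile of the receptor signals served as floor and -0.26 when the 99th did. As Cnn1 entered the comparison through the control array alone, a ratio below 0 was the only one it could have. Cnn2, the calponin of non-muscle cells, was bright on both arrays by 1450981_at, at 11.84 and 11.60, and its log2 ratio of -0.24 lay within the scatter. Tagln encodes transgelin (SM22-alpha), a calponin relative and an early marker of smooth muscle. It was the flattest member by 1423505_at, with signals of 11.28 and 11.30 and a log2 ratio of 0.02 that turned to -0.0026 when the arrays were centred on the median ratio of all genes.

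Filamins are long rods that cross-link actin filaments. Flna, the form found in nearly all cells, had signals of 11.56 and 11.89 by 1426677_at, a log2 ratio of 0.33. Flnc, the muscle filamin, had the highest ratio of the 9 genes and the 8th highest ratio of all 12090 genes above background. By 1447812_x_at it went from 7.51 with control siRNA to 9.13 with HDAC9 siRNA, a log2 ratio of 1.62. By 1449073_at it went from 7.52 to 8.22, a log2 ratio of 0.69 or 1.62-fold. Both Flnc probe sets were higher on the HDAC9 siRNA array, but their ratios differed by more than the scatter. The brighter one ends in _x_at, which marks probes that can bind unrelated transcripts, and without it Flnc was short of 2-fold.

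Counts over the 9 members are given beside the same counts over all genes. At least 2-fold higher was 1 of 9 members, against 1.44% of the 12090 genes above background, and at least 2-fold lower were 0 of 9, against 0.372%. A ratio above 0 was found for 6 of 9 members and for 54.1% of all genes. By probe sets, 12 of the 15 above background on at least 1 array had a ratio above 0 and 1 was at least 2-fold higher, against 53.4% and 1.44% of the 21955 named probe sets above background. Tpm1, Tpm2 and Flnc supplied 9 of the 15, each with a ratio above 0, and probe sets of the same gene are not independent. Higher by more than the scatter were 5 members, against 22.2% of all genes, and lower by more than it were 2, against 12.1%. Over the 8 members above background on both arrays these counts were 5 and 1, without Cnn1, which could only have a ratio below 0. The median log2 ratio of the 9 members was 0.33, that of the 8 above background on both arrays 0.33 and that of all genes 0.03.

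Brightness matters for this reading, because dim genes scatter more. Of the 9 members, 6 were in the brightest 25% of genes above background: Acta2, Tpm1, Tpm2, Flna, Tagln and Cnn2. Of these 6, 4 were higher by more than the scatter and 0 were lower, against 7.87% and 7.34% of the 3023 genes of that group, whose median log2 ratio was -0.05 and whose 5th and 95th percentiles were -0.34 and 0.37. Tpm1 and Tpm2 lay above that 95th percentile, and Acta2 and Flna, which passed the scatter narrowly, lay just under it. This threshold was chosen after the values were known, and members that share probes or transcripts of a family are not independent of each other.

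**Figure D2:**
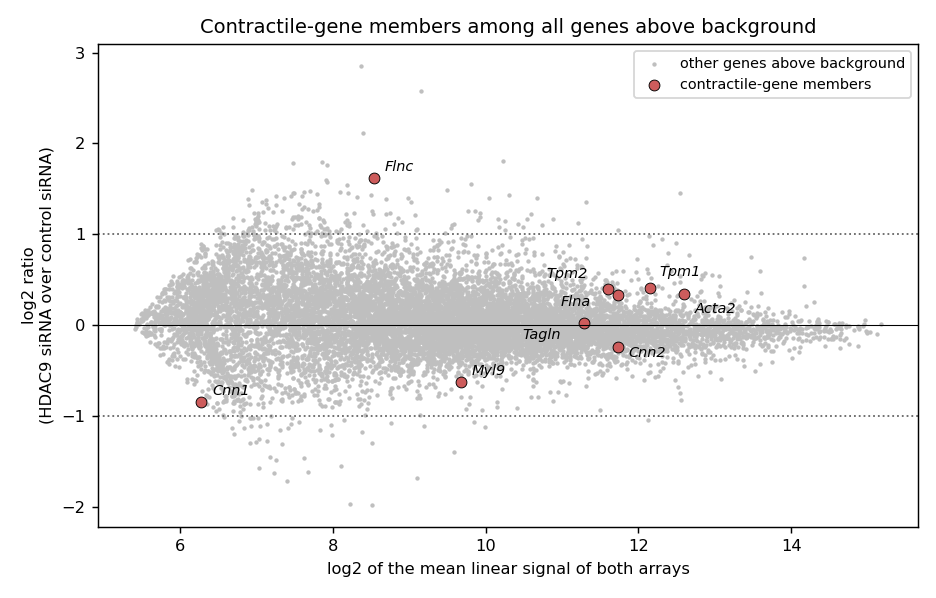
Log2 ratio of the HDAC9 siRNA array to the control array (y axis) against log2 of the mean linear signal of both arrays (x axis) for the 12090 genes above background, grey, with the 9 contractile genes as large points and dotted lines at 2-fold. Flnc, at 1.62, lies above the 2-fold line, Acta2, Tpm1, Tpm2 and Flna lie at the upper edge of the narrow cloud of bright genes, and Cnn1 and Myl9 lie at the lower edge.

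By their brightest probe sets, most close relatives of the members differed less. Of 12 paralogs measured, 10 were above background on both arrays, with a median log2 ratio of -0.01. The cytoplasmic actin genes Actb and Actg1 had log2 ratios of -0.01 and -0.02, beside 0.34 for Acta2. The tropomyosin genes Tpm3 and Tpm4 had 0.04 and -0.19, beside 0.41 for Tpm1 and 0.40 for Tpm2. The non-muscle light chain genes Myl12a and Myl12b had -0.02 and 0.01, beside -0.62 for Myl9, while Tagln2 had -0.16 and Cnn3 0.05. The exception was Actg2, the gamma actin gene of visceral smooth muscle, which was 2.03-fold lower (7.89 and 6.87 by 1422340_a_at). By brightest probe sets, Actg2 was thus the only paralog outside the scatter, on the same side as Cnn1 and Myl9. Dimmer sets of other paralogs also lay outside it. These were Tpm3 at -0.80 by 1436958_x_at, Cnn3 at 0.76 by 1438354_x_at, and Myl12b at -0.66, a bound, by 1428609_at. With 1 array per group, none of these differences between relatives could be tested.

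**Figure D3:**
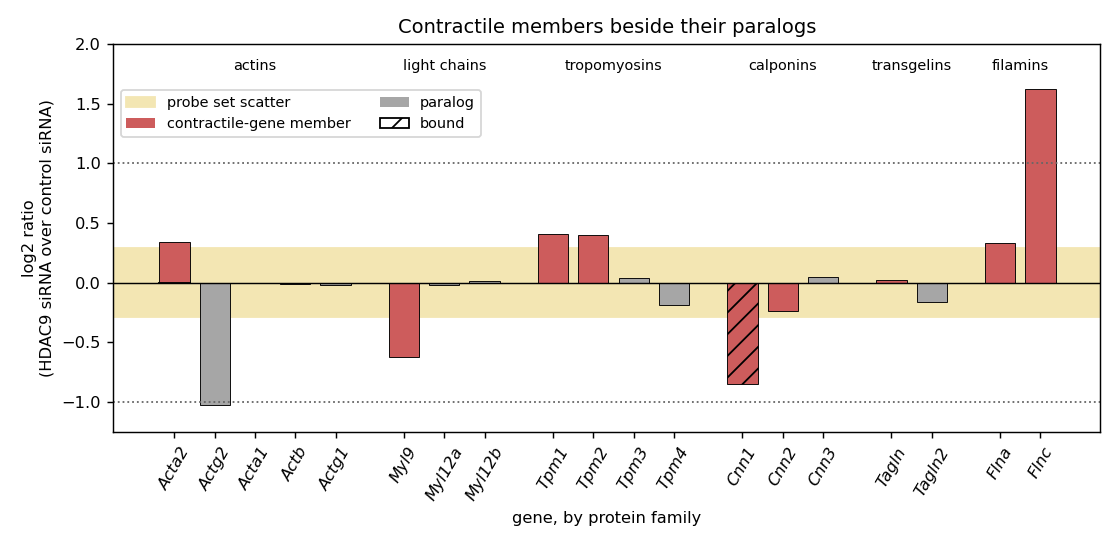
Log2 ratio of the HDAC9 siRNA array to the control array (y axis, bars from 0) for the contractile genes, red, and their paralogs above background, grey, by protein family (x axis), with the probe set scatter of 0.29 shaded, dotted lines at 2-fold and hatching for a bound. Tpm1 and Tpm2 extend above the shaded band while Tpm3 and Tpm4 stay inside it, and Myl9, Cnn1 and Actg2 lie below it.

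Other genes of the contractile apparatus and of the plaques that anchor it were also measured. Of 31 such genes 24 were above background, 22 of them on both arrays, beside 12090 and 10732 of all 18193 genes. Of the 24, 19 had a ratio above 0, beside 54.1% of all genes. Higher by more than the scatter were 10, beside 22.2%, and lower by more than it 2, beside 12.1%. Over the 22 genes above background on both arrays these counts were 17, 8 and 2. By their brightest probe sets, Synpo2 and Ldb3 were above background only with HDAC9 siRNA, so a ratio above 0 was the only possible one. Another Ldb3 probe set, 1451999_at, was above background only with control siRNA, with a log2 ratio of -0.10 as a bound. The median log2 ratio over all 24 was 0.22, beside 0.03 for all genes. At least 2-fold higher was 1 gene, Palld, which encodes palladin, an actin cross-linker raised in myofibroblasts. It was 2.34-fold higher by its brightest probe set 1433768_at (9.85 and 11.07) and had a log2 ratio of 1.41 by 1427228_at, but its dimmer probe sets 1440693_at and 1440635_at gave 0.01 and 0.23, the last as a bound. Next came the adhesion adaptor genes Tgfb1i1, for Hic-5 (7.70 and 8.59, log2 ratio 0.89), and Zyx, for zyxin (9.96 and 10.73, log2 ratio 0.77). The second Zyx probe set, 1438552_x_at, went the other way, with a log2 ratio of -0.38. Myh9, the heavy chain of non-muscle myosin, had a log2 ratio of 0.43, whereas Mylk, the kinase that phosphorylates the Myl9 product, had -0.43 by its brightest probe set and -0.17, within the scatter, by 1425505_at. Myh10, another non-muscle heavy chain, had -0.32.

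Regulators of these genes were measured on the same arrays. Of 22 genes for SRF, MRTF, YAP, TEAD and TGF-beta signalling and their direct targets, 20 were above background on both arrays, 0 were past 2-fold, and 16 had a ratio above 0, beside 54.1% of all genes, with a median log2 ratio of 0.22. Higher by more than the scatter were 6 of the 20 and lower by more than it 2, beside 22.2% and 12.1% of all genes, so the counts past the scatter lay near the general share. Tgfb1, the gene of the main TGF-beta ligand, went from 9.03 to 9.96, a log2 ratio of 0.92, and Tead1, a DNA-binding partner of YAP, from 10.44 to 11.25, a log2 ratio of 0.81. Smad3, which carries the TGF-beta signal to the nucleus, had 0.78, Yap1 0.70, Tead3 0.65 and the SRF partner gene Mrtfa 0.52. Srf itself was at 0.28 by its brightest probe set, within the scatter, and at 0.40 by 1418255_s_at, outside it. Other probe sets of Tgfb1, Yap1 and Smad4 lay within the scatter, at -0.19, 0.12 and 0.05. A further Smad4 set, 1422485_at, was at -0.45, outside it. The dimmer Smad3 sets were at 0.37 by 1450472_s_at and at -0.18, a bound, by 1450471_at. The lower genes were Ccn2, for connective tissue growth factor, at -0.38, and Smad4 at -0.33. Ccn1, a related matricellular gene and YAP target like Ccn2, was higher by all 4 of its probe sets, at 0.28 by the brightest and at 0.64, 0.83 and 1.27 by the others. Myocd, the SRF partner of smooth muscle and heart, was under the floor on both arrays.

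Promoter sequences are shown for 6 members that carry letters read by these regulators, to set them beside the ratios above. They are the 250 bases before an annotated start of the gene, from RefSeq on GRCm38.p6, where 8 of the 9 members had an entry. Capitals mark CATTCC or its reverse complement GGAATG, the core of the M-CAT element bound by TEAD factors, and the CArG box, the SRF element, either whole or with 1 base of its A/T core replaced by G or C. Both strands were searched, and no marked stretches overlap.
Acta2 (chr19:34255374-34255623, minus strand): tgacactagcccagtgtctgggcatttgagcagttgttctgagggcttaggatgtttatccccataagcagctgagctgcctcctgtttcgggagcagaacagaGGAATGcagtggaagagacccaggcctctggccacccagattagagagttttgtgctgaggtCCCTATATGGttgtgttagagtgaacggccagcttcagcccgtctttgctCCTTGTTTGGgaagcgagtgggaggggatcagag
Tpm1 (chr9:67049214-67049463, minus strand): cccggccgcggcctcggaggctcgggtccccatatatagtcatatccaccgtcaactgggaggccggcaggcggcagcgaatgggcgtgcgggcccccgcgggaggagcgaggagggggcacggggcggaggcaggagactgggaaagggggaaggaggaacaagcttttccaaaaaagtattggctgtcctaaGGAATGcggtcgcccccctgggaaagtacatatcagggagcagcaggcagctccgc
Flna (chrX:74246535-74246784, minus strand): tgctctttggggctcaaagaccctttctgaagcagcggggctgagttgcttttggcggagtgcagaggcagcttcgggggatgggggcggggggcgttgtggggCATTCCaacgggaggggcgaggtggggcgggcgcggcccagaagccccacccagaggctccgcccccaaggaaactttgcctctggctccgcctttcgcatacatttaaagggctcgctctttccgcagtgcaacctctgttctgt
Flnc (chr6:29433006-29433255, plus strand): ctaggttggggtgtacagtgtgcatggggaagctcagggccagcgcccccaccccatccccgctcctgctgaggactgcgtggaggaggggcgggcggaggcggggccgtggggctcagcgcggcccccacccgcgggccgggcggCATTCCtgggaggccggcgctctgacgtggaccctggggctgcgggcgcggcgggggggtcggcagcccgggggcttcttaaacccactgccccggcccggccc
Cnn2 (chr10:79988350-79988599, plus strand): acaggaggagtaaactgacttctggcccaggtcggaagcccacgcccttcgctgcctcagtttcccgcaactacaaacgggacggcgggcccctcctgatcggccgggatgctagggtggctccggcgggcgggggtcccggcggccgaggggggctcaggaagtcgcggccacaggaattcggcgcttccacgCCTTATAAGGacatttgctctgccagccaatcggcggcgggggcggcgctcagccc
Myl9 (chr2:156775214-156775463, plus strand): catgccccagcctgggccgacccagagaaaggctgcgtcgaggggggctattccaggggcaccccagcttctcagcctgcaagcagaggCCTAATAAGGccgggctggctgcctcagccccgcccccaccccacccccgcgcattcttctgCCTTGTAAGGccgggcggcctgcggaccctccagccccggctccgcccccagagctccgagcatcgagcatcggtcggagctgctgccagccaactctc

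CATTCC was present in a window of Acta2, Tpm1, Flna and Flnc and not in those of Tpm2, Cnn1, Cnn2 and Myl9. Flnc has another window, upstream of the one shown, that did not hold it. A gene was counted when any of its windows held the letters. So 4 of the 5 members that were higher by more than the scatter held these letters, and 0 of the 3 with a ratio below 0. These groups were drawn at unlike cut-offs: of the 3, Cnn2 lay within the scatter and Cnn1 could only have a ratio below 0. No conclusion was therefore drawn from the contrast. Over all 27025 genes with a window, 14.4% held these letters. Among genes above background, however, the 1229 that held CATTCC had a median log2 ratio of 0.04 and the 8553 that did not 0.02, and 54.8% and 53.7% of them had a ratio above 0. Across the genome the letters thus went with almost no difference in ratio, and the motif was picked after the members' ratios were known. A whole CArG box was in the windows of Cnn2 and Myl9, both with ratios below 0, and in 1.62% of all genes. A CArG box with 1 base replaced was in those of Acta2, which holds 2, Myl9 and the other Flnc window, whose start lies upstream of the one shown, and in 8.33% of all genes. Genes above background with a whole box had a median log2 ratio of 0.07 (130 genes) and those without 0.03. A match of letters is not a site of binding, and a window without them says nothing of sites elsewhere, such as the intron and distal elements known for smooth muscle genes.

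The cells behind the signals were looked at through markers. Macrophage transcripts were bright: 11 of 12 macrophage markers were above background on both arrays, Lyz2 at 14.72 on both and Cd68 at 14.46 and 14.40, with a median log2 ratio of 0.01, and the log2 of their summed signal was 16.46 with control siRNA and 16.42 with HDAC9 siRNA. Timd4 was the marker under the floor. Higher by more than the scatter were 4 of the 11 and lower by more than it 1, beside 22.2% and 12.1% of all genes. Gata6, Fcgr1, Icam2 and Mertk were the higher ones, with log2 ratios of 0.46, 0.43, 0.40 and 0.37, although a dimmer probe set of Fcgr1 gave -0.04. Cd14 was the lower one, at -0.46, and a dimmer probe set of Csf1r, 1419873_s_at, gave -0.32, also outside the scatter. Fibroblast and mesothelial transcripts were also present on both arrays. All 18 fibroblast and myofibroblast markers were above background, among them Dcn (13.70 and 13.83) and Pdgfra (12.38 and 12.27), with log2 summed signals of 16.77 and 17.02 and a median log2 ratio of 0.06. Higher by more than the scatter were 7 of the 18 and lower by more than it 5, beside 22.2% and 12.1% of all genes. Col1a1 and Col3a1, chains of fibrillar collagen, were the 2 past 2-fold, higher, and Fn1 and Lum had log2 ratios of 0.73 and 0.58. Thy1 was at -0.72, and Postn and Fap, often used to mark activated fibroblasts, were at -0.60 and -0.56. Fap was just above the floor on the HDAC9 siRNA array, at 6.35. All 11 mesothelial markers were above background, among them Upk3b (12.46 and 12.70), with log2 summed signals of 13.85 and 14.01 and a median log2 ratio of -0.02. Higher by more than the scatter were 4 of the 11 and lower by more than it 3, beside 22.2% and 12.1% of all genes. The mesothelin gene Msln was the 1 past 2-fold, lower, at -1.11 (7.49 and 6.39, the last just above the floor). Krt7 was at -0.99, while Lrrn4, Muc16 and Wt1 were at 0.56, 0.50 and 0.44.

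Defining markers of smooth muscle cells and pericytes were mostly at or near background. Of 12 such markers 7 were above it, 5 of them on both arrays, beside 12090 and 10732 of all 18193 genes. Mcam and Notch3 were above it only with HDAC9 siRNA, so a ratio above 0 was the only possible one. The 12 markers had log2 summed signals of 11.07 and 11.39, and the 7 had a median log2 ratio of 0.40. Myh11, the smooth muscle myosin heavy chain, Lmod1, Rgs5, Rgs4 and Abcc9 were under the floor on both arrays, so the bright signals of Acta2, Tagln, Tpm1 and Tpm2 stood beside no detectable Myh11. Higher by more than the scatter were 4 of the 7 and lower by more than it 2, beside 22.2% and 12.1% of all genes. Over the 5 above background on both arrays these counts were 3 and 2. Smtn and Des, which smooth muscle shares with other contractile cells, had log2 ratios of 0.61 and 0.40, and Kcnj8 had 0.74. Cspg4 was lower, at -0.47, and Actg2, given above as lower, is on this list too. Of 16 striated muscle markers 4 were above background, near the floor or up to a signal of 7.80, with 0 outside the scatter, and log2 summed signals of 9.60 and 9.64. Of 8 endothelial and platelet markers 4 were above background, with log2 summed signals of 10.86 and 10.73; Pf4, which macrophages also express, was the only one outside the scatter, at -0.38. The part of stromal or mesothelial cells in the members' ratios was not tested.

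**Figure D4:**
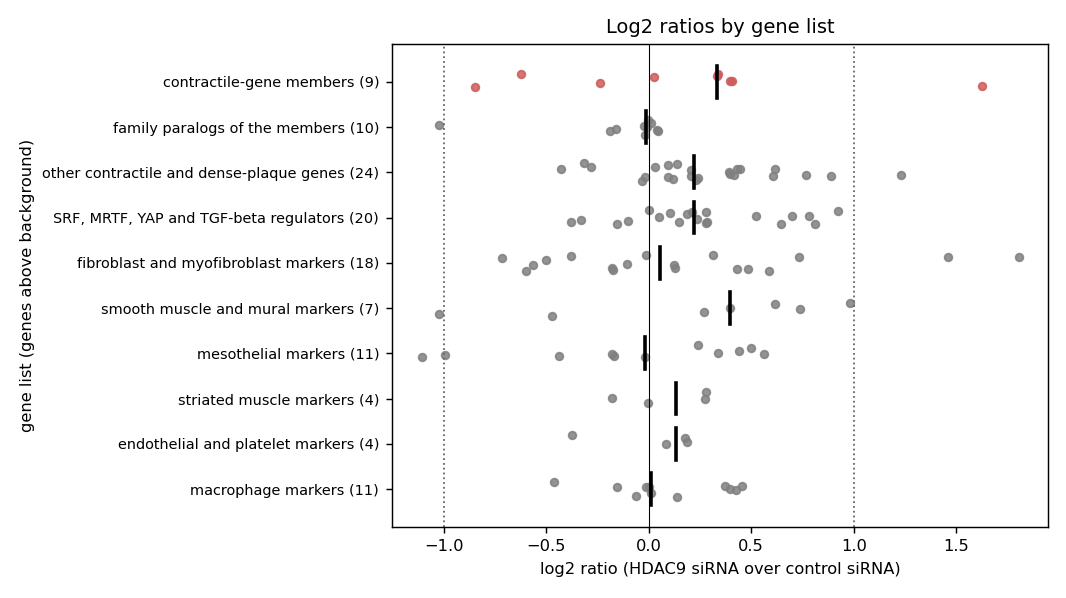
Log2 ratios of the HDAC9 siRNA array to the control array (x axis) for the genes above background of each list (y axis, number of genes in brackets; 1 point per gene, black bars at medians, dotted lines at 2-fold). The contractile genes spread from -0.85 to 1.62 with a median of 0.33, paralogs gather near 0 apart from Actg2, and markers of fibroblasts and mesothelial cells spread to both sides.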

How the data were processed

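The deposited table gives a log2 signal for each probe set on each array, which the authors made with MAS5, per the submitters' processing notes; its version, settings and detection calls, and the genome build, are not given in these sources. The mean linear signal without the highest and lowest 2% was 497 on both arrays, so the authors' scaling was kept. Of 45037 probe sets, 23158 exceeded the floor with control siRNA and 24140 with HDAC9 siRNA.

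Gene names came from the platform annotation, and only sets with exactly 1 symbol were used. All 18 probe sets of the members matched a RefSeq gene table of GRCm38.p6 by gene identifier. A gene was its probe set with the highest mean linear signal. With 1 array per group no p-value was computed, and lists are described by counts and medians beside those of all genes. The promoter search used windows of 250 bases.

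The members and lists were chosen with earlier results of these data known. Of each list, the genes past 2-fold, up to 4 others with large ratios and defining markers were to be named; paralogs set beside members, and Myh10, Myh9, Mylk, Srf, Tead3, Mrtfa, Ccn1, Ccn2, Smad4, Synpo2, Ldb3, Mertk, Postn, Fap and the brightest markers, were chosen after their values were seen. Tried as alternatives were quantile normalization, median centring, loess on signal (span 0.3), a lower and a higher floor (75th and 99th percentiles), a pseudocount of 1 in place of a floor, a median ratio across each gene's sets, only probe sets without a suffix letter (_s, _x or _a before _at), thresholds of 1.5-fold and 3-fold, and counting probe sets. The steps were tested on simulated data. Python 3.11.15, pandas 2.3.3 and statsmodels 0.14.6 were used.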

Additional observations from a re-analysis of the deposited data

How the results depend on the processing

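Flnc was the 1 member at least 2-fold higher under every alternative but 1: when probe sets with a suffix letter (_s, _x or _a) were left out, 0 members were past 2-fold higher, as Flnc was then at 0.69 by its other probe set, and its median over probe sets was 1.16. The same exclusion left Acta2 without a value and put the members' median log2 ratio at 0.18; under the other alternatives that median ranged from 0.30 to 0.37. At least 2-fold lower was 1 member, Cnn1, when the 75th percentile was the floor, and 1 with no floor (log2 ratio -3.84), and 2 members, Cnn1 and Myl9, passed 1.5-fold lower. With the 99th percentile as floor 1 member was lower by more than the scatter, in place of 2. Counting members beyond the scatter, and medians over genes above background on both arrays, were chosen after the data were seen. Of 71 alternative values of single members, 66 stayed within the scatter of 0.29 and 5, all of Cnn1 or Flnc, moved further; Tagln alone changed sign. Of 81 alternative medians of the other lists, 77 stayed within the scatter divided by the square root of the number of genes. No paired analysis was possible because each group has 1 array. Signal over background limits what can be said of Cnn1 and of the dim probe sets of Acta2 and Tpm1.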
